A study of Mus musculus with 32 samples.

Results

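The immediate-early genes of the Egr, Ier, Nr4a and Myc groups were followed through RNA, DNA damage and DNA repair after cisplatin. They were chosen by name and are 10 of the 25058 genes counted in all assays: Egr1, Egr2, Egr3, Ier2, Ier3, Ier5, Nr4a1, Nr4a2, Nr4a3 and Myc. All 10 had a position in GENCODE M21, the annotation of the mouse genome build GRCm38 (mm10). All are protein-coding, with Egr1 at chr18:34859823-34864984, Egr2 at chr10:67535475-67542188, Egr3 at chr14:70077203-70082614, Ier2 at chr8:84661331-84662852, Ier3 at chr17:35821684-35822923. The others are Ier5 at chr1:155096361-155099636, Nr4a1 at chr15:101254269-101274795, Nr4a2 at chr2:57106830-57124003, Nr4a3 at chr4:48045153-48086447 and Myc at chr15:61985391-61990374, with Ier2, Ier5 and Nr4a2 on the minus strand. Kidney, liver, lung and spleen came from female C57BL/6J mice aged 6 to 7 months, which had an intraperitoneal injection of cisplatin at 10 mg per kg or, as controls, of the same volume of saline. RNA-seq covered 2 control and 2 cisplatin libraries of each organ. XR-seq, which reads the short oligomers excised during nucleotide excision repair, and Damage-seq, which reads the positions of platinum adducts still in the DNA, covered 2 cisplatin libraries of each organ. No XR-seq or Damage-seq library of a control animal was analysed here, so these assays compare organs and strands but not treatment. The labels give 2 h as the time after treatment, whereas the protocol has injection at Zeitgeber time 1 and sacrifice at 5, which is 4 h. No genotype or transgene separates the groups, and whole organs were used, so each value is a mixture of cell types.

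Immediate-early genes are transcribed within minutes of a stimulus without new protein synthesis, because the factors that switch them on (serum response factor, CREB and the p53 and NF-kB families among them) are already in the cell. Their RNAs are short-lived and their promoters are compact. Cisplatin joins neighbouring guanines on 1 strand, and RNA polymerase stalled at such an adduct on the transcribed strand (TS) recruits transcription-coupled repair, so that XR-seq reads on the TS follow transcription while those on the non-transcribed strand (NTS) come from global repair.

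Egr1, Egr2 and Egr3 encode zinc-finger transcription factors that bind GC-rich sites. Ier2 and Ier5 encode related proteins with a conserved N-terminal region, and Ier5 acts in regulation of heat shock factor. Ier3 shares the name but not the family and acts in cell survival. Nr4a1, Nr4a2 and Nr4a3 encode orphan nuclear receptors that act largely through their own abundance. Myc encodes the helix-loop-helix partner of Max and drives ribosome biogenesis and growth.

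RefSeq promoter windows of GRCm38.p6, which run from 250 bases before to 50 after an annotated start, were matched for 6 of the 10 genes: Egr2, Ier3, Ier5, Nr4a1, Nr4a2 and Nr4a3. The windows of 4 genes are shown because they hold the letters by which serum response factor, CREB and the EGR proteins are known to bind. Capitals mark the CArG box, the CRE core TGACG on either strand and the EGR site GCGNGGGCG, and each line is written 5′ to 3′ on the strand of the gene. The Egr2 window is 1 of 5 for that gene, at chr10:67537619-67537918 on the plus strand. The Nr4a1 window lies at chr15:101266596-101266895 on the plus strand, that of Nr4a2 at chr2:57123954-57124253 on the minus strand, and that of Nr4a3 at chr4:48045055-48045354 on the plus strand.
Egr2: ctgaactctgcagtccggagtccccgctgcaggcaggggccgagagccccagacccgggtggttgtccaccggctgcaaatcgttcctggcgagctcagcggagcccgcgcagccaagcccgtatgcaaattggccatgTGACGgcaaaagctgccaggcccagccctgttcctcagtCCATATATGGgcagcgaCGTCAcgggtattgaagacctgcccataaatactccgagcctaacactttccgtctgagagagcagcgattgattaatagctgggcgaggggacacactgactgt
Nr4a1: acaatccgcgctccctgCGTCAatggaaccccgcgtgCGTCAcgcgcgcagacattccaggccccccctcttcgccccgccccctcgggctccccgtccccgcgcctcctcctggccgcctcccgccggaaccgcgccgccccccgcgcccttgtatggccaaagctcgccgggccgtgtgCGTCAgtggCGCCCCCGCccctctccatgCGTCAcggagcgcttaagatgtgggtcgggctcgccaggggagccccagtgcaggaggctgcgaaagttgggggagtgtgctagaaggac
Nr4a2: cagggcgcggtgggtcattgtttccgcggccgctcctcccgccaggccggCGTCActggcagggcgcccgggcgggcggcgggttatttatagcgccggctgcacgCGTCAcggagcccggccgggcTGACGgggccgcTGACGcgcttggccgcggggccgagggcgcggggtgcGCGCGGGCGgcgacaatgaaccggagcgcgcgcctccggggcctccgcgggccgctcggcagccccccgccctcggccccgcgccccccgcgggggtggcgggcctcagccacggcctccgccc
Nr4a3: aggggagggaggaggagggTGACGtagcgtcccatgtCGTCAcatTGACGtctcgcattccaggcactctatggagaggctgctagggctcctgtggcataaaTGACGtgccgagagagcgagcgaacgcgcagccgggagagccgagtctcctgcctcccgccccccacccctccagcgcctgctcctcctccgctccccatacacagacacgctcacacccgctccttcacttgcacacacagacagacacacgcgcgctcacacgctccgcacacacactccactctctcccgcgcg

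Both strands were searched. A CArG box was found in 4 of the 5 Egr2 windows, 3 of which overlap each other and share the same box, against 1.63% of 32851 promoter windows of the same length. The CRE core was found at 4 positions in each Nr4a window and at 2 in the Egr2 window shown, against 20.8% of all windows with at least 1. No member window held the full palindromic CRE TGACGTCA, which stands in 1.79% of all windows. The EGR site was found once each in Nr4a1 and Nr4a2, against 5.55% of all windows, and both overlap an SP1 site GGGCGG. The E-box CACGTG of MYC and MAX was found in 1 Egr2 window (7.15% of all windows). TATAAA was found in Nr4a2 only, on the strand opposite to that of the gene (13.6%). The SP1 site was found in at least 1 window of each of the 6 genes (35.7%). The Ier3 and Ier5 windows held none of the CArG box, CRE core or EGR site letters. A match is a description of letters and not a test of binding.

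Reads assigned to genes numbered 15619474 to 162270280 per library in RNA-seq, 10658675 to 59779770 in XR-seq and 1571167 to 6441367 in Damage-seq, counting both strands. For the 8 lung and spleen RNA-seq libraries the submitters have since exchanged the labels control and cisplatin, so every direction in those organs rests on the corrected labels. Cdkn1a, the p53 target that encodes the cell cycle inhibitor p21, was higher in both cisplatin libraries than in both control libraries of each organ: 431 and 456 CPM (reads scaled to a common total of reads on genes) against 15.1 and 30.1 in kidney, 131 and 185 against 6.13 and 31.3 in liver, 503 and 587 against 150 and 143 in lung, and 39.5 and 34.1 against 13.2 and 13.3 in spleen. Each organ carried its defining markers, with summed levels of 12437 to 18436 CPM for tubule and podocyte markers in kidney, 78239 to 148734 for hepatocyte markers in liver, 67830 to 75764 for epithelial markers in lung and 3396 to 3755 for B cell markers in spleen. Lung and spleen control pairs differed far less than the other RNA-seq pairs, with a dispersion index of 2.75 and 2.98 against 39.3 to 349. The index is the chi-square of a pair's counts over its degrees of freedom, near 1 for sampling of reads alone. Each of these control pairs was counted as 1 sample, which leaves 14 RNA-seq samples.

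In kidney, 8 of the 10 genes rose after cisplatin, by 1.32 to 4.13 on the log2 scale, and 0 fell. Among all 15471 genes tested there, 2.4% were called higher and 2.65% lower (by edgeR's quasi-likelihood test that the fold change exceeds 0.4 on the log2 scale, with a Benjamini-Hochberg adjusted p under 0.05 over all genes). The median log2 fold change was 2.43 over the 10 genes and -0.0030 over all genes tested. In all 10 genes both cisplatin libraries lay above both control libraries, a pattern that 24.3% of all genes tested showed in that direction.

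Egr1 had 3.93 and 9.63 CPM in the kidney control libraries and 104 and 133 CPM after cisplatin. This was the largest rise among the members, with a log2 fold change of 4.13 ± 0.47 (SE) and an adjusted p of 0.0137. Egr2, better known for its part in myelination and in lymphocytes, had 0.62 and 0.33 CPM in controls and 3.97 and 3.71 CPM after cisplatin. Its log2 fold change was 3.15 ± 0.46 (SE, adjusted p = 0.0218). Egr3 stayed near the limit of counting, with 0 and 17 reads in controls and 12 and 25 reads after cisplatin, and its log2 difference of 1.65 ± 1.04 (SE) was not called (adjusted p = 0.522).

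Among the Ier genes, Ier2 had 12.0 and 11.6 CPM in kidney controls and 65.9 and 64.0 CPM after cisplatin. The pairs were tight and the log2 fold change was 2.52 ± 0.17 (SE, adjusted p = 0.00349). Ier3 already had 35.3 and 39.6 CPM in controls and reached 86.6 and 92.8 CPM, the smallest called rise at 1.32 ± 0.18 (SE, adjusted p = 0.0251). Ier5 went from 27.8 and 20.4 CPM to 127 and 96.2 CPM, a log2 fold change of 2.28 ± 0.21 (SE, adjusted p = 0.00845).

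Of the nuclear receptors, Nr4a1 had 2.90 and 4.47 CPM in kidney controls and 27.1 and 30.3 CPM after cisplatin, with a log2 fold change of 2.99 ± 0.31 (SE, adjusted p = 0.0110). Nr4a2, best known in dopaminergic neurons, had 1.09 and 0.91 CPM in controls and 4.74 and 4.93 CPM after cisplatin (2.35 ± 0.35 SE, adjusted p = 0.0235). Nr4a3 had 0.41 and 1.07 CPM against 1.73 and 4.45 CPM, and its log2 difference of 2.06 ± 0.68 (SE) was not called (adjusted p = 0.177). It was called when genes of low counts were not filtered out (2.03, adjusted p = 0.00238). Myc had 6.88 and 6.20 CPM in controls and 54.4 and 50.9 CPM after cisplatin. With a log2 fold change of 3.07 ± 0.19 (SE) it had the smallest adjusted p of the members in kidney, 0.00320.

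Leaving out cisplatin replicate 1 left 5 of the 10 genes called in kidney, without Egr2, Ier3 and Nr4a2, and leaving out cisplatin replicate 2 left 6, without Ier3 and Nr4a2. Without control replicate 2, Nr4a3 was called as well, at a log2 fold change of 3.06, which made 9.

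**Figure D1:**
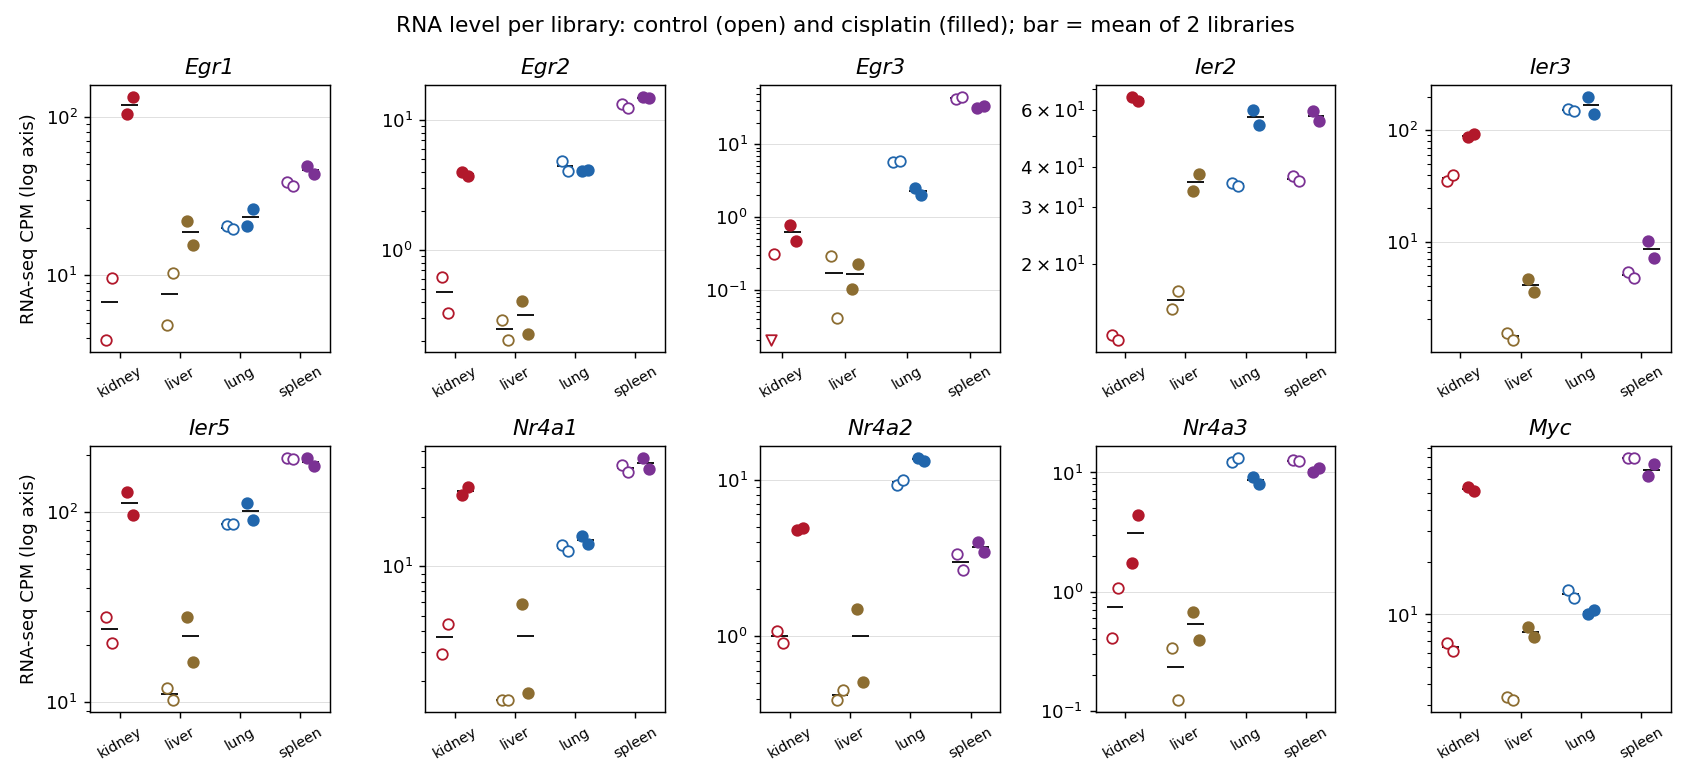
RNA level of the 10 genes in each of the 16 RNA-seq libraries, in CPM on a log axis that differs between panels. Open points are control libraries, filled points cisplatin libraries, bars are means of 2 libraries, and the triangle marks the kidney control library with 0 Egr3 reads. In kidney every filled point lies above both open points, while lung and spleen pairs lie close together.

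In liver, 0 of the 9 genes tested were called by edgeR, and 0% of 13868 genes were called higher and 0% lower. At an unadjusted p under 0.05, 5 of the 9 genes and 1287 of all genes passed, and DESeq2 called 0 members and 188 genes. All 9 log2 differences were above 0, from 0.33 for Egr2 to 1.52 for Ier3, with a median of 1.23 against 0.034 over all genes tested. For 8 of the 9 both cisplatin libraries lay above both controls, against 20.2% of all genes. Egr3 had at most 12 reads in a liver library and was not tested.

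Ier3 had 1.51 and 1.32 CPM in liver controls and 4.57 and 3.53 CPM after cisplatin (1.52 ± 0.41 SE, adjusted p = 0.310). Myc had 3.37 and 3.21 CPM against 8.42 and 7.40 CPM (1.28 ± 0.37 SE, adjusted p = 0.356). Ier2 had 14.5 and 16.4 CPM against 33.6 and 38.1 CPM (1.25 ± 0.37 SE, adjusted p = 0.383). In these genes the replicates of each group were close and the groups did not overlap. Nr4a1 was different: 1 cisplatin library had 5.86 CPM and the other 1.68 CPM, beside controls at 1.54 and 1.52 CPM. Without cisplatin replicate 1, Ier2 (1.52) and Myc were called in liver, and 1840 genes in all. With all organs in one fit, which shares their estimate of the spread, Ier3 (adjusted p = 0.0255) and Myc (adjusted p = 0.0220) were called in liver.

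In lung, where 1 summed control sample stood against 2 cisplatin samples, 0 of the 10 genes were called by edgeR, against 0.132% of 18210 genes called higher and 1.96% called lower. At an unadjusted p under 0.05, Ier2 and Egr3 passed, with 2373 of all genes, and DESeq2 called 0 members and 516 genes. Ier2 had 35.5 and 35.0 CPM in controls and 60.2 and 53.8 CPM after cisplatin (0.69 ± 0.17 SE, adjusted p = 0.268). Egr3, which acts in T and B lymphocytes, had 5.82 and 5.86 CPM in controls and 2.48 and 2.04 CPM after cisplatin (-1.38 ± 0.32 SE, adjusted p = 0.139). Nr4a3 had 12.2 and 13.3 CPM against 9.15 and 8.02 CPM, and Myc 13.9 and 12.5 CPM against 10.0 and 10.7 CPM. Both cisplatin libraries lay above both controls in 4 genes (34.2% of all genes) and below in 3 (33% of all genes). When each control library was counted as its own replicate, Ier2 was called higher and Egr3 lower.

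B cell markers in lung summed to 366 and 376 CPM in controls and 79.9 to 110 CPM after cisplatin, and 6 of 6 were called lower. T cell markers summed to 161 to 164 CPM against 41.1 to 49.2 CPM, and 5 of 6 were called lower. None of these markers was at 0 in both libraries of a group. High endothelial venule markers, of which 3 of 4 were in the files, summed to 171 and 175 CPM against 9.56 to 13.8 CPM, with 1 called lower. Their part in the lower Egr3, Nr4a3 and Myc levels of lung was not tested, and fewer cells of a type and less RNA per cell cannot be told apart in whole organs.

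In spleen, also with 1 summed control sample against 2 cisplatin samples, 0 of the 10 genes were called by edgeR, against 0.164% of 17686 genes called higher and 0.017% called lower. At an unadjusted p under 0.05, 1 member (Ier2) and 768 of all genes passed, and DESeq2 called 0 members and 85 genes. Ier2 had 37.5 and 36.1 CPM in controls and 59.6 and 55.6 CPM after cisplatin (0.68 ± 0.17 SE, adjusted p = 1.00). Ier3 had 5.32 and 4.70 CPM against 10.2 and 7.14 CPM (0.85 ± 0.35 SE). Egr3 had 42.4 and 44.9 CPM against 31.3 and 33.9 CPM (-0.41 ± 0.15 SE). Both cisplatin libraries lay above both controls in 5 genes (28.9% of all genes) and below in 3 (33.1%), which were Egr3, Nr4a3 and Myc as in lung. The Ier5 level was about the same with and without cisplatin, 192 and 189 CPM in controls and 192 and 175 CPM after it. Pancreatic acinar markers summed to 0.54 to 0.57 CPM in the spleen controls and 1249 to 1739 CPM after cisplatin, with 6 of 6 called higher and none at 0 in both libraries of a group, and their part in the spleen values was not tested.

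**Figure D2:**
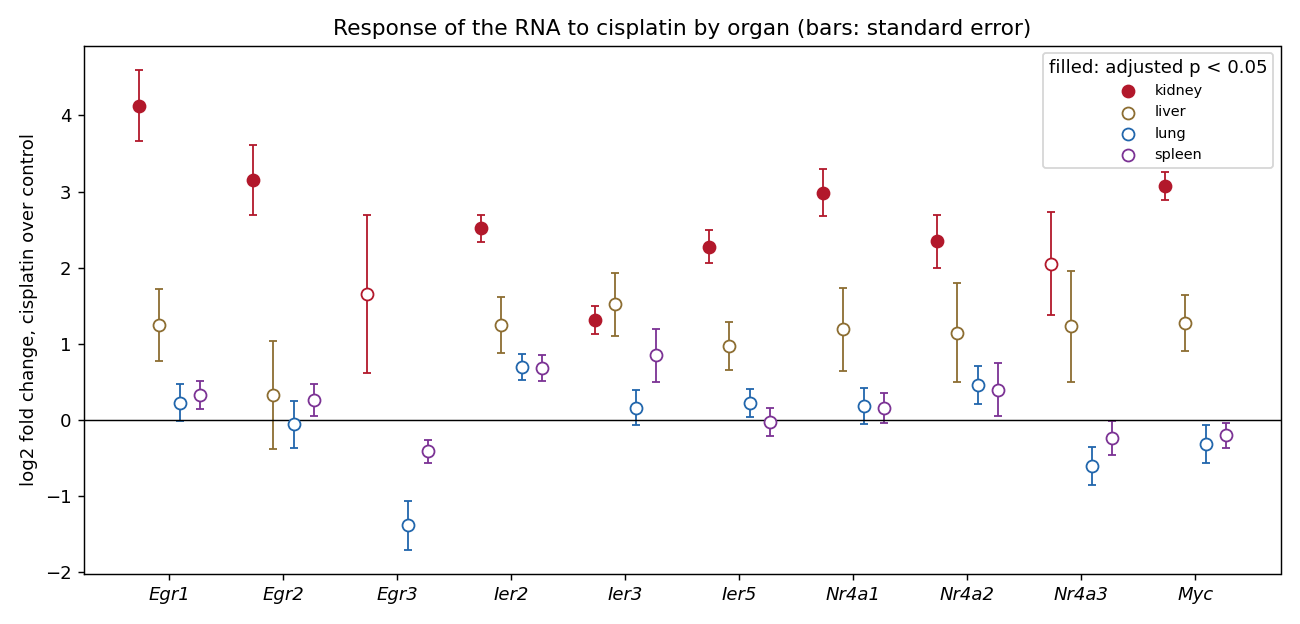
Log2 fold change of cisplatin over control for each gene (x axis) and organ (colour), with the standard error of the edgeR fit as bars. Filled points have an adjusted p under 0.05, which 8 kidney values and no value of another organ had, and Egr3 was not tested in liver.

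The difference of the response between organs was tested in 1 fit over the 14 RNA-seq samples. By an F test over the 4 organs, 2 of the 10 genes differed in their response, Myc (adjusted p = 0.00376) and Ier5 (adjusted p = 0.0433), against 0.209% of 19100 genes. Against the mean response of the other 3 organs, the kidney response was larger for 5 of the 10, against 0.414% of all genes. The extra log2 rise in kidney was 3.56 ± 0.57 (SE) for Egr1, 3.02 ± 0.44 for Egr2, 1.67 ± 0.29 for Ier2, 1.92 ± 0.26 for Ier5 and 2.85 ± 0.25 for Myc, with adjusted p of 0.0289, 0.0165, 0.0416, 0.0122 and 0.000863. Nr4a1 (2.50 ± 0.47, adjusted p = 0.0543) missed the threshold, and Ier3 had an extra rise of 0.51 ± 0.29 (SE, adjusted p = 0.739). The liver, lung and spleen responses were called against the mean of the others for 0 members. At an unadjusted p under 0.05, 9 members differed by the F test, that is all but Egr3, as did 1608 of all 19100 genes. In kidney against the others 8 members passed, all but Egr3 and Ier3, and the share over all genes was not counted there.

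Myc kept its call for kidney with each of the 16 libraries left out in turn, at 2.80 to 2.90. The other 4 calls depended on single libraries: without kidney control replicate 1, or without kidney cisplatin replicate 1, only Myc was called, and Ier2 was lost under 10 of the 16 omissions. The F test called 1 to 5 members when a library was left out. Under the scaling of DESeq2 (RLE) the median of all genes in this contrast moved from 0.026 to -0.086, and Ier2 was no longer called.

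In the saline-injected controls the 10 genes differed between the organs, as did 69.1% of all genes by the same F test. The count over the members is therefore not particular to them. Spleen had the highest control level of 7 genes and lung of the other 3. Against the mean of the other 3 organs, spleen was higher for 7 of the 10 (27.9% of all genes), lung higher for 6 (20.7%), liver lower for 8 (27.9%) and kidney lower for 9 (19%). Under RLE the median of all genes in the spleen contrast moved from 0.21 to 0.037, and the counts of members stayed at 7 higher and 1 lower. Ier3 was the exception in kidney, higher there by 1.74 ± 0.21 (SE, log2).

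The ranges between organs were wide. The SDs of lung and spleen controls come from the pairs that were counted as 1 sample in the tests. They may understate the spread between animals, which also limits what is said of overlaps with these organs. Egr3 ran from 43.6 ± 1.80 CPM (SD, 2 libraries) in spleen and 5.84 ± 0.03 in lung to 0.17 ± 0.18 in liver and 0.15 ± 0.22 in kidney, where the last pair overlapped. Ier3 ran from 151 ± 4.52 CPM in lung through 37.4 ± 3.07 in kidney and 5.01 ± 0.44 in spleen to 1.42 ± 0.14 in liver. Myc stood at 79.1 ± 0.49 CPM in spleen, 13.2 ± 0.99 in lung, 6.54 ± 0.49 in kidney and 3.29 ± 0.11 in liver. Ier2 was the most even, between 36.8 ± 0.95 CPM in spleen and 11.8 ± 0.27 in kidney. Neighbouring organs in these orders overlapped in Egr1 (liver and kidney), Egr3 (liver and kidney) and Nr4a3 (lung and spleen), and in no other member.

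Levels were also taken per exon length, so that genes can be set against each other. The highest control level in spleen was that of Ier5 at 58.2 ± 0.61 RPKM (SD, 2 libraries). Myc followed at 29.1 ± 0.18 and Ier2 at 24.2 ± 0.63. In control kidney and lung Ier3 led, at 33.1 ± 2.71 and 134 ± 4.00 RPKM. The same limit holds for these SDs of spleen and lung. In control liver Ier2 led at 10.2 ± 0.92 RPKM, and Egr2, Egr3, Nr4a2 and Nr4a3 stayed between 0.04 and 0.10 RPKM.

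After cisplatin the place of kidney in these orders was different. Kidney became the organ with the highest Egr1 level, at 118 CPM against 46.1 in spleen, and the highest Ier2 level, at 65.0 CPM against 57.6. It moved to the second place for Ier5, Nr4a1, Nr4a2 and Myc and stayed there for Ier3, although its Ier5 libraries overlapped those of lung.

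XR-seq reads on the TS were scaled to CPM per 1000 GG, since GG is the site of the main cisplatin adduct and the genes hold between 102 and 2709 GG on that strand. Kidney had the highest TS level for 9 of the 10 genes and spleen for Egr3. By the edgeR F test the organs differed for 8 of the 10 genes, all but Ier2 (adjusted p = 0.0745) and Nr4a1 (adjusted p = 0.0563), close to what 58.3% of all 19731 genes tested showed. Against the mean of the other 3 organs, kidney was called higher for 9 of the 10, against 15.5% of all genes, with a median log2 difference of 1.12 over the members and -0.0023 over all genes.

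Egr1 had 122 and 80.9 TS CPM per 1000 GG in kidney, 51.0 and 35.1 in liver, 24.5 and 26.9 in spleen and 15.7 and 13.3 in lung. Kidney lay above the others by 1.82 ± 0.20 on the log2 scale (SE, adjusted p = 1.48e-05) and no library range overlapped between organs. Nr4a3 had 14.4 and 21.1 in kidney and 1.77 to 6.82 in the other organs, and Ier5 223 and 217 in kidney and 59.9 to 111 elsewhere. Their kidney differences were 1.89 ± 0.23 and 1.22 ± 0.20 (SE, log2).

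Myc had 64.7 and 68.2 in kidney, 48.1 and 48.0 in spleen, 42.6 and 51.5 in liver, and 20.04 and 17.91 in lung. Kidney was higher by 0.73 ± 0.17 (SE, adjusted p = 0.00507), and spleen and liver overlapped. Nr4a2 differed least in kidney, 30.8 and 33.5 against 27.5 and 28.9 in lung (0.51 ± 0.17 SE against all others, adjusted p = 0.0408), and lost its call when any of 6 of the 8 libraries was left out. Ier2 lost its call without kidney replicate 1 or lung replicate 1, and Nr4a1 without kidney replicate 2, which moved its difference from 0.60 to 0.37, or spleen replicate 2.

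Egr3 behaved apart. Spleen had 23.50 and 23.97 TS CPM per 1000 GG and the other organs at most 6.47, and the spleen difference was 3.09 ± 0.77 (SE, adjusted p = 0.00847). Kidney replicate 1 had 0 TS reads beside 44 NTS reads for Egr3, while kidney replicate 2 had 96 and 34. The same library had 0 NTS reads for Ier2 beside 447 TS reads, and 0 for Ier5 beside 919. The kidney difference of Egr3 was -0.88 with both kidney libraries and 0.080 without kidney replicate 1.

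**Figure D3:**
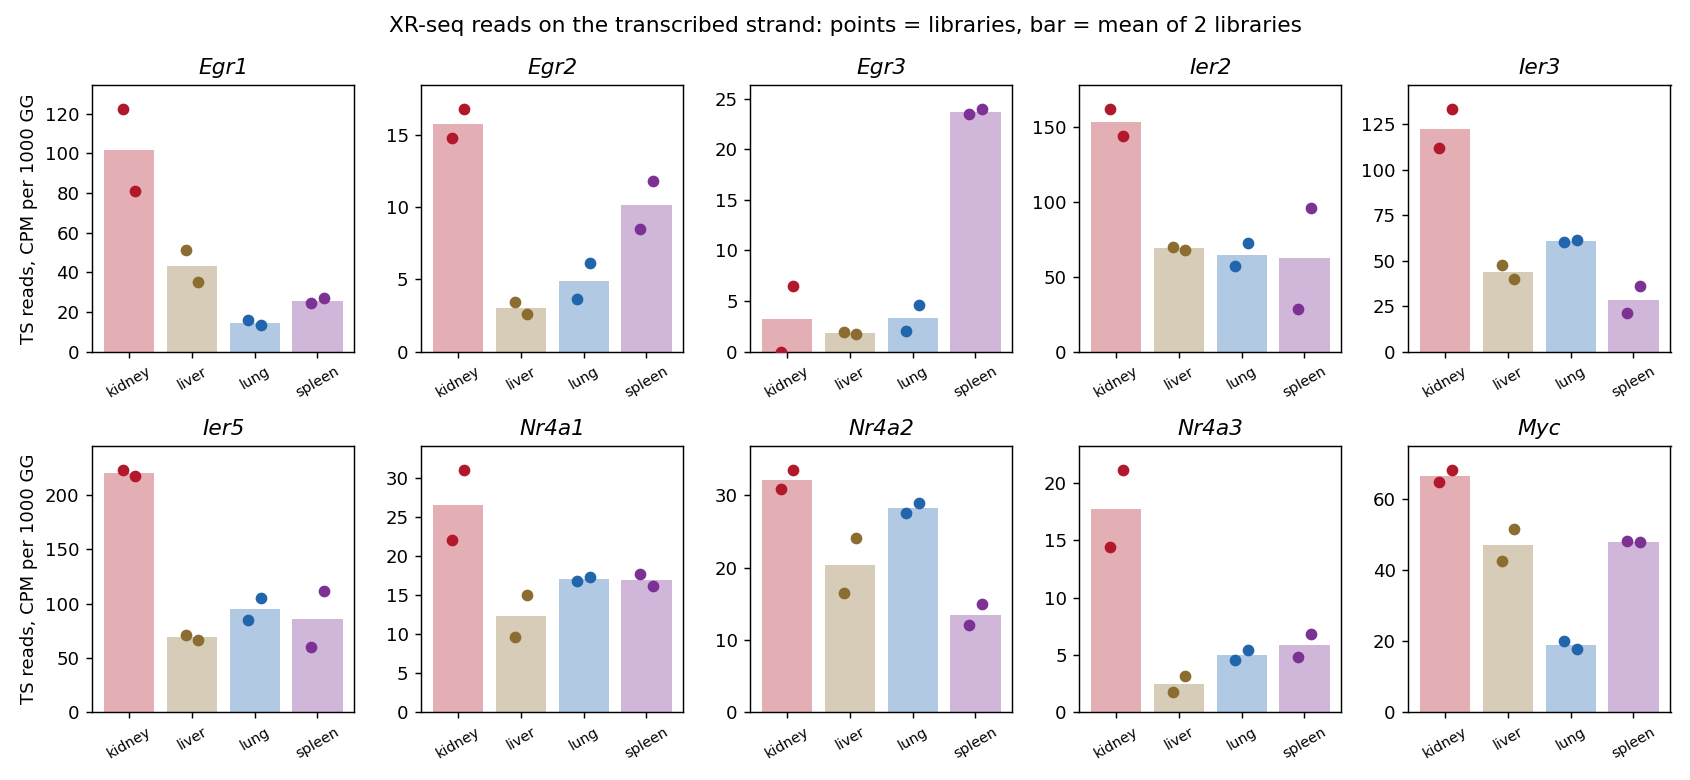
XR-seq reads on the transcribed strand of each gene by organ, as CPM per 1000 GG on a linear axis from 0 that differs between panels. Points are the 2 libraries of an organ and bars their mean. Kidney holds the tallest bar in 9 panels and spleen in that of Egr3.

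On the NTS, XR-seq differed between organs for 0 of the 10 genes by edgeR, against 26.3% of 19408 genes. Myc alone passed at an unadjusted p under 0.05, as did 7133 of all genes, and DESeq2 called 0 members and 6811 genes. Without kidney replicate 2, edgeR called 4 members on the NTS. NTS reads of a member in a library numbered 0 to 473. After cisplatin the organ with the highest RNA level also had the highest TS level for 3 of the 10 genes (Egr1, Egr3 and Ier2), beside 42.3% of 17740 genes. Egr3 had the same order of all 4 organs in both, spleen, lung, kidney and liver, although lung and kidney overlapped on the TS. For Ier3, lung had 169 CPM of RNA and kidney 89.7 after cisplatin, and kidney had a TS level of 123 and lung 60.9 CPM per 1000 GG.

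Within each library the strands were compared per GG over all 8 XR-seq libraries. The TS exceeded the NTS for 8 of the 10 genes in 8 of 8 libraries each, against 60% of 19080 genes called that way (exact two-sided sign-flip permutation test, p = 0.00781, the smallest that 8 libraries can give, adjusted p = 0.0127). The median log2 ratio of TS over NTS was 2.78 over the members and 2.04 over all genes. Ier5 had the largest mean ratio at 5.09 ± 2.16 (SD, 8 libraries), but kidney replicate 1, with 0 NTS reads, set that place: without it the mean was 4.37 for Ier5 and 4.82 for Nr4a1. With all 8 libraries Nr4a1 had 4.79 ± 0.37, the smallest spread of all members, with TS shares of 95.2% to 97.8% of reads in every library. Ier2, also with 0 NTS reads in kidney replicate 1, had 3.88 ± 1.94, and 3.21 without that library. The other ratios were 3.39 ± 0.72 for Nr4a2 (3.16 without it), 2.81 ± 1.03 for Nr4a3, 2.75 ± 0.65 for Myc, 2.61 ± 0.93 for Egr1 and 2.34 ± 1.27 for Ier3.

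Egr2 went the other way. Its TS held fewer XR-seq reads per GG than its NTS in 8 of 8 libraries, with a mean log2 ratio of -1.11 ± 0.84 (SD), as was called for 9.83% of all genes (exact sign-flip test, adjusted p = 0.0127). Liver replicate 2 was the most one-sided, with 63 TS and 443 NTS reads, a TS share of 12.5% (Wilson 95% interval 9.85 to 15.6). Lung replicate 1 had 126 and 473 reads and liver replicate 1 had 104 and 370, with TS shares of 21.04% (17.96 to 24.48) and 21.9% (18.4 to 25.9). Kidney replicate 2 was the most even, with 269 and 347 reads, and the kidney and spleen libraries all had TS shares between 37.1% and 43.7%. GENCODE M21 has no other gene over Egr2, but RefSeq places the long non-coding RNA Gm32255 on the opposite strand (chr10:67496359-67536180), over the first 706 bp of Egr2. Its part in the NTS reads of Egr2 was not tested, and the gene counts do not say where in the gene the reads lie. Without a statement that RNA-seq was counted by strand, RNA of Gm32255 and of Egr2 cannot be told apart in that overlap. Of the other members, RefSeq has an overlapping gene only at Nr4a2, LOC105244150, on the same strand over 670 bp.

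Egr3 had a ratio above 0 in 7 of 8 libraries and below in kidney replicate 1, with a mean of 0.51 ± 2.71 (SD, exact sign-flip p = 0.648, adjusted p = 0.699). Without that library the mean was 1.41 and the test called it. In spleen the ratio was 2.73 and 2.98 (log2), against 0.28 to 1.22 in the 5 other libraries above 0.

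**Figure D4:**
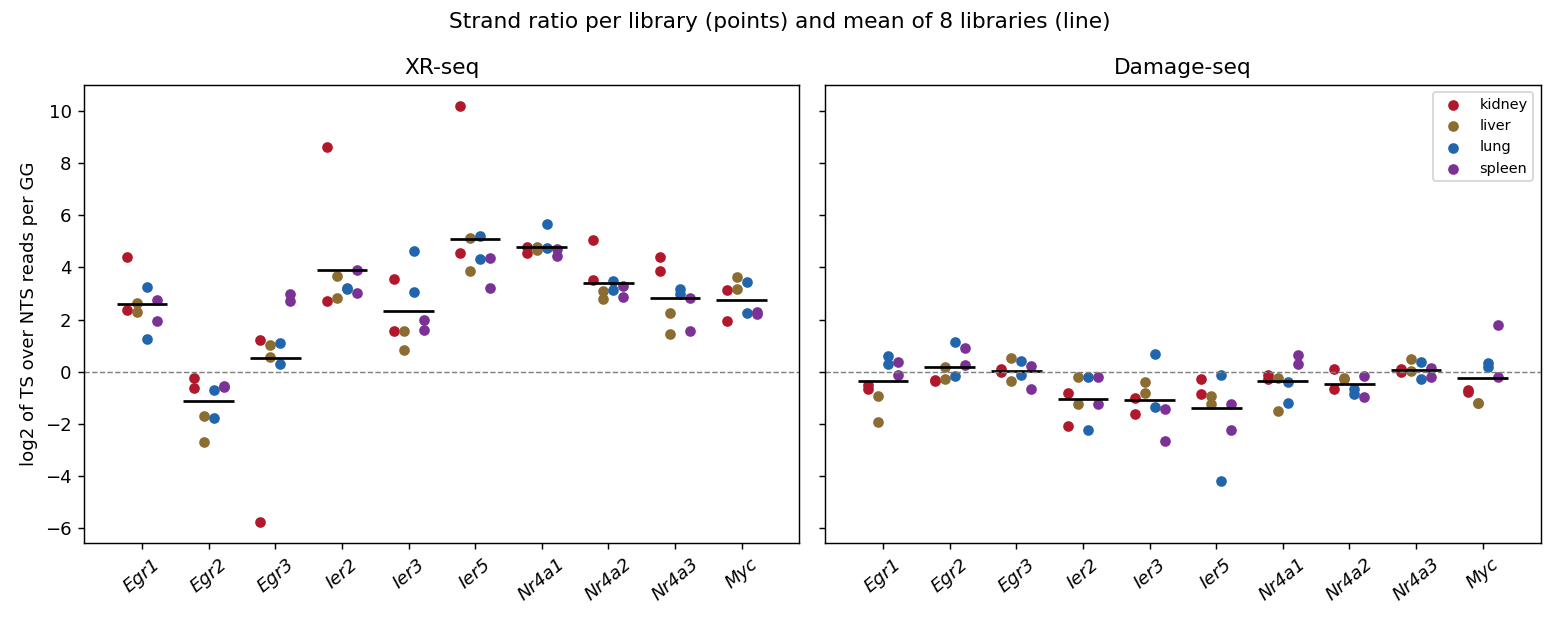
Log2 ratio of TS over NTS reads per GG for each gene in XR-seq (left) and Damage-seq (right), with 1 read added to each count. Points are libraries coloured by organ, lines are means of 8 libraries, and the dashed line marks equal strands. In XR-seq all points of 8 genes lie above 0 and all points of Egr2 below it, while the Damage-seq points scatter around or below 0.

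Damage-seq reads were few, with 0 to 191 TS reads and 0 to 169 NTS reads of a member in a library, so only large differences were detectable. The dispersion index of the 2 libraries of an organ was 1.43 to 1.68 in liver and spleen and 2.57 to 3.11 in kidney and lung. Sampling of reads alone would give about 1. They were kept as replicates, so p-values in this assay cover counting error and the limited further spread between these libraries. Between organs, TS reads of 3 of the 7 genes tested differed by the edgeR F test (Egr1, Nr4a1 and Myc), against 31.9% of 19759 genes, and NTS reads of 2 of 9 (Egr1 and Nr4a1), against 18% of 20262 genes. DESeq2 called 0 members on either strand and 3111 and 1347 genes. At an unadjusted p under 0.05 edgeR passed the same 3 and 2 members, with 8381 of 19759 genes on the TS and 6371 of 20262 on the NTS. Liver had fewer TS reads than the mean of the others for Egr1 and Myc, 2 of 7 genes against 8.72% of all genes. Egr1 had 4 and 6 TS reads in liver (1.67 and 4.14 CPM per 1000 GG) and 34 and 42 in kidney (8.89 and 12.3), with a liver difference of -1.47 ± 0.50 (SE, adjusted p = 0.0272). Myc had 2 TS reads in each liver library, against 22 and 11 in kidney, 25 and 27 in lung and 11 and 4 in spleen (-2.34 ± 0.69 SE, adjusted p = 0.00978). The Egr1 call was lost without liver replicate 1 (-0.87), kidney replicate 2 or spleen replicate 2, and the Myc call without liver replicate 1 (-1.996) or spleen replicate 1. On the NTS, kidney was higher than the others for Egr1 and Nr4a1, 2 of 9 genes against 15.5% of all genes. The Egr1 call was lost without kidney replicate 2 (0.95, adjusted p = 0.145), and the F test on the NTS called 0 members without kidney replicate 1, kidney replicate 2 or liver replicate 1. On the TS it called 0 without liver replicate 1. Nr4a1 had 104 and 86 NTS reads in kidney (7.90 and 7.34 CPM per 1000 GG) and 3.32 to 4.85 CPM per 1000 GG in the other organs.

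Between strands, TS damage was lower than NTS damage per GG for Ier2 and Ier5, 2 of 10 genes against 22.3% of 20408 genes (exact sign-flip p = 0.00781, adjusted p = 0.0332). The mean log2 ratio was -1.39 ± 1.30 (SD, 8 libraries) for Ier5, which had 0 to 10 TS reads and 2 to 22 NTS reads in a library. For Ier2, with a ratio of -1.03 ± 0.81, 3 of the 8 libraries had no read on either strand and their ratio comes from the GG counts alone. Over the 5 libraries with reads, a choice made after seeing the data, the ratio was -1.51 ± 0.61 (exact sign-flip p = 0.0625, the smallest possible for 5). Ier3 (-1.07 ± 0.97, adjusted p = 0.0705) and Nr4a2 (-0.47 ± 0.38, adjusted p = 0.0522) were near the threshold. The median log2 ratio was -0.35 over the members and -0.25 over all genes. Nr4a3, the longest member with 41295 bp, had the most reads and an even ratio of 0.08 ± 0.26, and Egr2 stood at 0.17 ± 0.57.

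Immediate-early genes of other families were called in kidney and lung. In kidney, 29 of 38 tested genes of other immediate-early families rose and 0 fell, beside 2.4% of all genes called higher, with a median log2 fold change of 2.36 beside -0.0030 over all genes. Those with the smallest adjusted p were Plk3, a stress-activated kinase (4.87 and 3.62 CPM in controls, 431 and 414 after cisplatin), Hbegf, an EGF receptor ligand (16.20 and 13.97 against 283 and 315), and Fosl1, an AP-1 subunit (0.47 and 0.51 against 31.6 and 32.1). In lung, 5 of 39 rose, beside 0.132% of all genes, led by the clock gene Per1 (48.6 and 42.9 against 138 and 118), the MAP kinase phosphatase Dusp1 (88.8 and 85.6 against 245 and 303) and Cebpd (52.6 and 50.6 against 122 and 148). None of 35 in liver and none of 39 in spleen were called, with medians of 1.17 and 0.43.

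The counts in kidney that follow stand beside the same 2.4% of all genes called higher. Of 24 upstream kinases and factors, 1 rose in kidney, which is near that share: Crem, a CREB-family gene (21.5 and 15.4 CPM in controls, 56.3 and 45.1 after cisplatin), and 0 in the other organs. Of the relatives, partners and corepressors, 1 of 17 rose in kidney, also near that share: Ier5l (9.83 and 11.5 against 31.2 and 30.9), and 0 elsewhere, so Max, its antagonists and the Nab corepressors were not called. Of 20 MYC target genes of ribosome biogenesis and growth, 6 rose in kidney and 0 fell, with a median of 0.67, led by Ppan, Nop56 and Nop58 of pre-ribosome assembly. Nop56 had 28.6 and 18.7 CPM in controls and 152 and 100 after cisplatin. Medians of this list in liver, lung and spleen were 0.39, -0.16 and 0.033, with 0 called. Of 10 p53 targets, 5 rose in kidney, led by Cdkn1a, Aen and Mdm2, 1 in lung (Cdkn1a) and 0 in liver and spleen.

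Over the 14 RNA-seq samples, the gene outside the members with the most similar log2 (CPM + 1) among 14883 genes was named for each member. It was Tgif1 for Egr1 (r = 0.953), Rbmxl1 for Egr2 (0.991), Tnfsf11 for Egr3 (0.995), Rela for Ier2 (0.940), Fbxo2 for Ier3 (0.987), Arf6 for Ier5 (0.991), Tox4 for Nr4a1 (0.979), Zbtb42 for Nr4a2 (0.980), S1pr3 for Nr4a3 (0.973) and Nop58 for Myc (0.973). Among the members themselves, Ier5 and Nr4a1 were closest to each other (0.974). The 14 samples come from 4 organs and share them, so these values are a description of those samples.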

How the data were processed

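Libraries were grouped by organ and treatment from the sample labels, with 2 libraries a group, which the study calls biological replicates. Where both libraries were kept apart, p-values cover the spread between them. In the fits of lung and of spleen, the lone summed control sample was assumed to vary like the cisplatin pair. The p-values there do not cover spread between control animals. The authors deposited raw read counts per gene: STAR and featureCounts for RNA-seq, and cutadapt, BWA and Picard for XR-seq and Damage-seq, where reads were counted on the TS and NTS, all on mm10 (tools as named in the labels and methods, versions not given in the sources used here). The counts were used as deposited, and 0 columns of other samples were left out.

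RNA-seq was fitted in each organ with edgeR 4.0.16 in R 4.3.3 (filterByExpr, TMM, quasi-likelihood with glmTreat at a log2 fold change of 0.4, Benjamini-Hochberg adjustment over all genes, threshold 0.05). Differences of the response and levels in the controls were fitted over 14 samples, because the control pairs of lung and spleen were summed. These pairs had a dispersion index of 2.75 and 2.98, under the limit of 3, while other RNA-seq pairs had 39.3 to 349. The limit was applied to RNA-seq pairs only, and no cisplatin pair fell under it. Damage-seq pairs had 1.43 to 3.11, with 7 of 8 under the limit, and were kept apart, because summing them would leave 1 sample an organ and no test between organs. XR-seq and Damage-seq were compared between organs on each strand with edgeR F tests, and between strands with an exact two-sided sign-flip permutation test of log2 TS over NTS per GG over 8 libraries (1 read added, genes with at least 20 reads, 10 GG on each strand and under 100000 bp). SE is the log2 value divided by the root of F. Intervals are 95% Wilson intervals and cover counting error only. DESeq2 1.42.0, other scalings and filters, and omission of each library were the alternatives. Simulated data were run through the RNA-seq response, the difference of the response, the XR-seq TS comparison of organs and the strand test. Changes of a single size were planted, only in genes above a set level of counts. Members at low counts are therefore not covered, and the outcomes are not given here. The other comparisons and DESeq2 were not simulated.

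The members and all gene lists were chosen with earlier results of these data known. Values were given for every member, for up to 3 called genes of each list with the smallest adjusted p, for Cdkn1a, and for the gene with the highest Pearson r to each member among genes with a mean of at least 1 CPM.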

Additional observations from a re-analysis of the deposited data

Results flagged for a closer look

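The results of 5 genes stood out because their kidney response was called above the mean response of the other 3 organs. On the log2 scale the excess was 3.56 for Egr1, 3.02 for Egr2, 1.67 for Ier2, 1.92 for Ier5 and 2.85 for Myc. The F test over all organs called only Myc and Ier5, and every kidney call but that of Myc depended on single libraries. Both kidney cisplatin libraries lay above both kidney controls for each of the 5 genes, as they did for 24.3% of all genes tested in kidney. The same libraries gave the kidney response that flagged them, so this is no separate support. Groups of 2 libraries are too small for a check of single outlying samples.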

How the results depend on the processing

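Of 1010 member values under the alternatives, 905 kept their direction and, where an adjusted p was given, their side of the threshold. Another 64 lost a call, 32 gained one and 9 changed sign. The 905 include DESeq2 contrasts of an organ in XR-seq and Damage-seq, which had no adjusted p and were checked for direction only. The tally also includes the Damage-seq strand ratios with each library left out, where no gene at all was called. The losses of Ier2 and Ier5 there are part of the 64 and were shared by every gene called with all libraries. The sign changes, none of a called value, were lung Egr2 (-0.24 to 0.020 with control libraries left out), lung Ier3 (-0.097) and spleen Nr4a1 (-0.043) in the fit of all organs without cisplatin replicate 1, the kidney XR-seq difference of Egr3 (-9.71 to 0.080 with each library left out), and in the Damage-seq strand ratio Egr1 (0.070 without the GG adjustment) and Egr3 (-0.061 to 0.106 with each library left out).

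Leaving out each library gave, for members and all genes called, 5 to 9 and 123 to 2005 in kidney, 0 to 2 and 22 to 1840 in liver, 0 and 0 to 339 in lung, 0 and 22 to 97 in spleen, 1 to 5 and 8 to 210 for the difference between organs, and 1 to 7 and 9 to 171 for kidney above the others. In XR-seq it gave 7 to 9 and 9218 to 14103 on the TS, 0 to 4 and 3250 to 9203 on the NTS, 7 to 9 and 2530 to 3697 for kidney above the others, and 9 to 10 and 12711 to 13132 between strands. In Damage-seq it gave 0 to 3 and 4380 to 6796 on the TS, 0 to 2 and 1134 to 4219 on the NTS, and 0 and 0 between strands, where 7 libraries allow no p below 0.0156, so that count is void.

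Without a filter on low counts, all genes called were 1896 in kidney (782 with it), 155 in liver (0), 1089 in lung (381), 58 in spleen (32), 344 for the difference between organs (40) and 139 for kidney above the others (79), and members called were 1 in lung and 6 for the difference. Against a fold change of 0, 1711 genes were called in kidney and 804 in lung. With all organs in one fit, liver had 2 members and 518 genes and lung 70 genes. DESeq2 called 188 genes in liver and 85 in spleen, and 0 members with 3111 and 1347 genes for Damage-seq on the TS and NTS. RLE left 1 member and 24 genes for the difference, and 50 genes for kidney above the others. Each control library as a replicate gave 2 members and 1606 genes in lung, 62 genes in spleen, 6 members and 621 genes for the difference, and 270 genes for kidney above the others. The causes were not tested.

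The labels do not say that replicate numbers mark a shared animal or day. Deviations of same-numbered control and cisplatin libraries correlated at 0.413 (kidney), 0.293 (liver), 0.0880 (lung) and 0.391 (spleen), and between organs in the other assays at -0.130 to 0.151. With the replicate number as a block, 9 members (Nr4a3 added) and 3182 genes were called in kidney, 4 members (Egr1, Ier2, Ier3 and Myc) and 1015 genes in liver, 2 and 1914 in lung, 172 genes in spleen, 8 members and 1780 genes for the difference, and 8 members and 519 genes for kidney above the others.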
